A study of Mus musculus with 12 samples.

Results

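The 9 genes that make glutamine or break down branched-chain amino acids were followed through 3 mouse tissues: *Glul*, *Gls2*, *Bcat2*, *Bckdha*, *Bckdhb*, *Bckdk*, *Dbt*, *Ivd* and *Hibch*. They were picked by symbol and stand for 9 of the 22273 genes listed in gastrocnemius and of the 22252 listed in liver and in gonadal white adipose tissue (WAT). All 9 had a row in each of the 12 libraries. The mice were male C57BL/6J with floxed alleles of the glucocorticoid receptor (GR) gene *Nr3c1*. GRf/f mice carried no Cre and served as controls, and GRmKO mice carried in addition a Cre transgene under the promoter of skeletal actin, *Acta1*, which is active in muscle fibres from development onwards. The satellite cells, vessels, nerves, fat and connective tissue of the muscle keep their receptor in GRmKO mice, as do the liver and WAT. Treatment began at 8 weeks of age and lasted 4 weeks. It was given in the drinking water, as 1% ethanol alone (vehicle) or 1% ethanol holding 100 µg/mL of corticosterone (CORT), the glucocorticoid that rodents mainly secrete. Each of the 12 combinations of tissue, genotype and treatment was 1 library from RNA pooled over 3 mice, so there are no replicates and no p-value.

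Glutamine synthetase, encoded by *Glul*, joins ammonia to glutamate. Muscle and fat export the glutamine, and a thin layer of perivenous hepatocytes uses the same enzyme to trap ammonia that escaped the urea cycle. Liver-type glutaminase, encoded by *Gls2*, runs the reverse reaction in periportal hepatocytes. Leucine, isoleucine and valine lose their amino group to the mitochondrial branched-chain aminotransferase, encoded by *Bcat2*, mostly outside the liver. The resulting keto acids are decarboxylated by a mitochondrial complex whose decarboxylase subunits come from *Bckdha* and *Bckdhb* and whose acyltransferase core comes from *Dbt*. The kinase encoded by *Bckdk* phosphorylates the complex and turns it off. *Ivd* encodes isovaleryl-CoA dehydrogenase of leucine breakdown and *Hibch* a hydrolase of valine breakdown. Glucocorticoids are known to raise glutamine synthetase in muscle and to release amino acids from it.

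Values are counts scaled to a library total of 1000000 (CPM), with a 95% interval that covers counting error only. Totals ran from 19394572 to 20940660 counts, and 3 counts, the floor under which no fold is given, equal 0.143 to 0.155 CPM. A change is the log2 ratio after adding 0.5 CPM to both sides, and its interval is that of the plain ratio. There are 2 labels to describe a change: called means that the NOISeq procedure for data without replicates placed it at or above 0.9, and past 1.5 times means a ratio of at least 1.5 in either direction on the same log2 scale. Neither label is a test of the difference between conditions, since the spread between pools was not measured. In bulk RNA, moreover, fewer cells of a type and less RNA per cell cannot be told apart.

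The deleted gene and the tissues were checked first. *Nr3c1* stood at 113 and 90.4 CPM in GRf/f gastrocnemius under vehicle and CORT and at 46.4 and 35.5 CPM in that of GRmKO mice, which is 41.2% and 39.2% of the GRf/f level. *Fkbp5*, a co-chaperone of GR and one of its best-known targets, stood at 61.9, 355, 29.98 and 20.8 CPM in vehicle-treated GRf/f, CORT-treated GRf/f, vehicle-treated GRmKO and CORT-treated GRmKO gastrocnemius. The 8 myofibre markers summed to between 85840 and 116000 CPM in gastrocnemius, the 12 hepatocyte markers to between 94210 and 149600 CPM in liver and the 8 adipocyte markers to between 25250 and 32330 CPM in WAT, all of them above the floor in their own tissue. Markers of epididymal epithelium summed to at most 1.10 CPM in WAT.

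Each row of the deposited data bears the identifier of 1 transcript, which stands for its gene, and how far that transcript can be told from its sister transcripts differs between the 9 genes. For *Ivd* (Ivd-201, 12 exons, chr2:118861954-118882909) it is the only coding transcript, and 100% of its windows of 31 bases are its own. The share was 83.7% for *Dbt* (Dbt-201, chr3:116513070-116549981), 79.0% for *Glul* (Glul-201, chr1:153899944-153909723) and 62.9% for *Bckdha* (Bckdha-201, chr7:25629946-25658981). It was 10.4% for *Hibch* (Hibch-201, chr1:52844929-52920986). For *Bcat2* (chr7:45570153-45589711) it was 12.7% in gastrocnemius and WAT, where Bcat2-201 was retained, and 27.1% in liver, where the row is Bcat2-203, which starts at another first exon. For *Bckdk* (Bckdk-202, chr7:127904082-127910221) it was 0%, and for *Bckdhb* (chr9:83925145-84124240) it was 0% in gastrocnemius and liver (Bckdhb-201) and 9.87% in WAT (Bckdhb-205). The row of *Gls2* (chr10:128194457-128210004) was the coding transcript Gls2-201 in liver, but in gastrocnemius and WAT it was a transcript annotated as a target of nonsense-mediated decay, with 5.24% and 1.12% of windows of its own. Genome coordinates are of GRCm38. Where the share is small, counts can pass between sister transcripts without any change of the gene's total, and this was not tested.

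**Figure D1:**
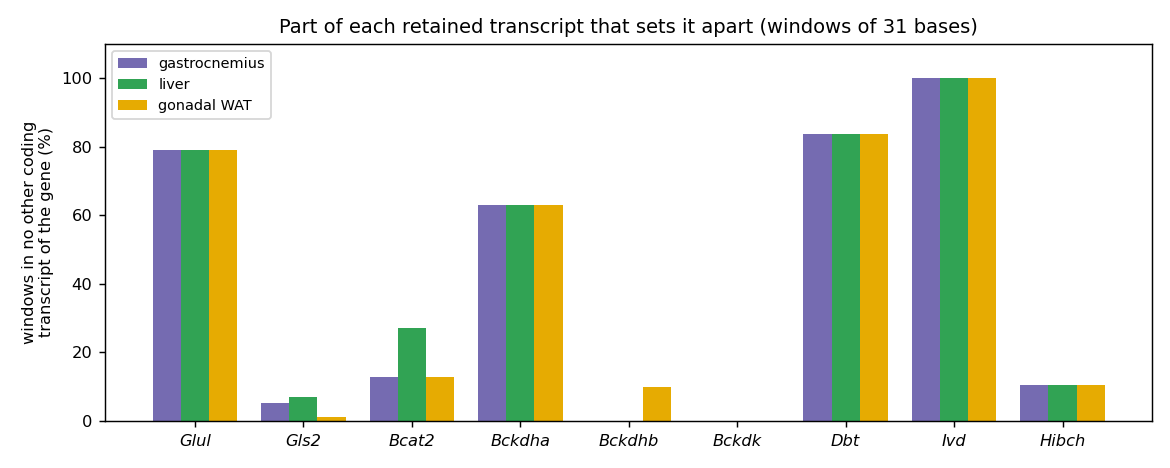
Share of the 31-base windows of each retained transcript that occur in no other coding transcript of the same gene, in percent, for the 9 genes and the transcript retained in each tissue (bar colour). The bars of *Ivd*, *Dbt*, *Glul* and *Bckdha* reach 100%, 83.7%, 79.0% and 62.9%, while those of *Bckdk* in 3 tissues and of *Bckdhb* in gastrocnemius and liver are at 0%.

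*Glul* was the most abundant of the 9 transcripts per length in each of the 12 libraries. Its row holds the same transcript in all tissues, and by the mean of 4 libraries WAT led with 1869 CPM, before liver with 1102 CPM and gastrocnemius with 422 CPM. The ranges of the 3 tissues did not overlap: WAT libraries held 1722 to 2110.5 CPM, livers 942 to 1234 CPM and muscles 229 to 662 CPM. Among neighbours in that order, only the CORT-treated livers of the 2 genotypes, at 1216 and 1234 CPM, had counting intervals that overlapped.

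In gastrocnemius *Glul* stood at 464 CPM (455 to 474) in vehicle-treated GRf/f mice, 662 CPM (651 to 674) in CORT-treated GRf/f mice, 330.3 CPM (322 to 338) in vehicle-treated GRmKO mice and 229 CPM (223 to 236) in CORT-treated GRmKO mice. The highest library was thus that of CORT-treated mice with the receptor and the lowest that of CORT-treated mice without it. With CORT the log2 change was 0.51 (0.47 to 0.55) in GRf/f and -0.53 (-0.58 to -0.47) in GRmKO mice, neither called. The difference between the 2 responses was -1.04 on the log2 scale (-1.11 to -0.97 by counting error), and with 1 library per group it could not be tested. Between genotypes *Glul* was lower in GRmKO muscle by a log2 change of -0.49 (-0.54 to -0.45) under vehicle and -1.53 (-1.58 to -1.48) under CORT, and the latter was called. The call held under all 5 alternative settings of NOISeq.

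Fat and liver hold more *Glul* than muscle, so the markers of both were followed in gastrocnemius. The 8 adipocyte markers summed to 383, 943, 427 and 639 CPM in vehicle-treated GRf/f, CORT-treated GRf/f, vehicle-treated GRmKO and CORT-treated GRmKO muscle, with *Cidec* at 0 in vehicle-treated GRmKO muscle and no other marker at 0. The 7 of them with the same transcript in WAT reached 0.843%, 2.50%, 1.12% and 1.96% of their sum in the matching WAT library, and these shares of the *Glul* of WAT come to 15.1, 46.2, 23.7 and 33.7 CPM. CORT minus vehicle in GRf/f muscle was 198 CPM for *Glul* and 31.1 CPM for the adipocyte-marker share. Under CORT, GRmKO minus GRf/f muscle was -433 CPM for *Glul* and -12.5 CPM for the marker share. The 12 hepatocyte markers summed to 46.6, 113, 137 and 370 CPM in the same order, and their share of liver *Glul* was at most 3.05 CPM. *Apoa2* was at 0 in both GRf/f libraries and *Apob* in that under CORT, with no hepatocyte marker at 0 in GRmKO muscle. The myofibre markers summed to 116000, 99480, 85840 and 107000 CPM. The 6 fibroblast markers summed to 1501, 559, 2303 and 795 CPM with none at 0, and with CORT 3 of them were called lower in GRf/f and 4 in GRmKO muscle, among them *Col1a1* and *Col3a1*. The 8 macrophage and leukocyte markers summed to 30.01, 35.7, 107 and 25.8 CPM, with *Itgam* and *Cd79a* at 0 in vehicle-treated GRf/f, *Cd79a* in CORT-treated GRf/f and *Ptprc*, *Itgam* and *Cd3e* in CORT-treated GRmKO muscle. The part of any of these markers in the values of *Glul* and of the other 8 genes in muscle was not tested.

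**Figure D2:**
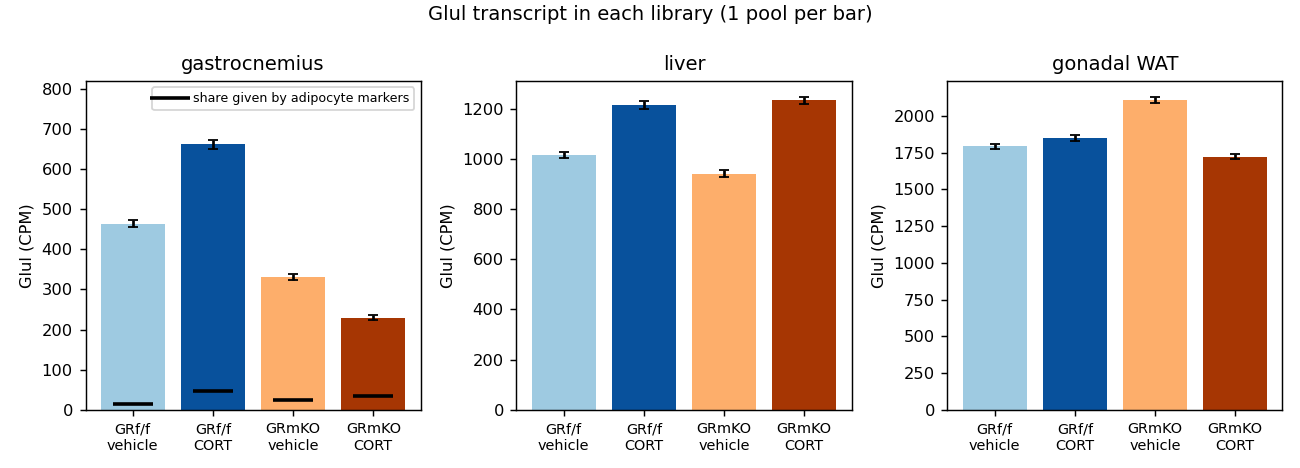
*Glul* in CPM in the 4 libraries of each tissue, 1 bar per pool with its 95% counting interval, on axes that start at 0 and differ between tissues. Black lines in gastrocnemius mark the *Glul* that the adipocyte-marker share of WAT stands for, 15.1 to 46.2 CPM, beside bars of 229 to 662 CPM; the part of admixed fat was not tested.

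In liver *Glul* stood at 1016, 1216, 942 and 1234 CPM in vehicle-treated GRf/f, CORT-treated GRf/f, vehicle-treated GRmKO and CORT-treated GRmKO mice. Both CORT libraries lay above both vehicle libraries, with log2 changes of 0.26 (0.23 to 0.29) and 0.39 (0.36 to 0.42), neither called. The 10 other perivenous markers summed to 11110, 4794, 10880 and 5012 CPM, largely by *Cyp2e1*, and the 10 periportal markers to 63280, 95760, 84740 and 125700 CPM, largely by *Alb*. Single markers were split. With CORT 4 of the perivenous markers were higher and 6 lower in GRf/f liver, and 3 and 7 in GRmKO liver. Of the periportal markers 5 were higher and 5 lower in GRf/f liver, and 6 and 4 in GRmKO liver. The 8 macrophage and leukocyte markers summed to 58.6, 13.8, 38.9 and 19.7 CPM in these livers, with *Cd79a* at 0 in CORT-treated GRf/f and *Cd3e* in CORT-treated GRmKO liver. The part of all these markers in the values of *Glul* and of the other genes in liver was not tested.

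In WAT *Glul* stood at 1793, 1848, 2110.5 and 1722 CPM in the same order. The log2 change with CORT was 0.04 (0.02 to 0.06) in GRf/f and -0.29 (-0.31 to -0.27) in GRmKO mice, so the highest and the lowest library were both of GRmKO mice. None of the changes of *Glul* in WAT was called or past 1.5 times.

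The 250 bases before the RefSeq start site of *Glul* (chr1:153899679-153899928, plus strand, build GRCm38.p6) are shown because the receptor acts through DNA, and *Bcat2* (chr7:45569903-45570152, plus strand) and *Bckdk* (chr7:127903823-127904072, plus strand) are shown beside it, since *Bcat2* was the other called gene and *Bckdk* had its lowest library in CORT-treated GRf/f mice in all 3 tissues. Capitals mark the GR half-site TGTTCT, read on either strand and so also as AGAACA. The window of *Bckdk* lies before the start of Bckdk-201 at 127904082, while the measured Bckdk-202 begins further downstream at 127904762. All 3 are written 5′ to 3′ and end at the base before the start.
Glul promoter: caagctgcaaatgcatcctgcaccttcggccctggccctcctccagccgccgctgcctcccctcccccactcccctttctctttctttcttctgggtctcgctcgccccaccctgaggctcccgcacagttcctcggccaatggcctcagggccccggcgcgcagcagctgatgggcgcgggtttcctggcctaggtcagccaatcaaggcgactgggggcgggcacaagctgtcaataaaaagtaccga
Bcat2 promoter: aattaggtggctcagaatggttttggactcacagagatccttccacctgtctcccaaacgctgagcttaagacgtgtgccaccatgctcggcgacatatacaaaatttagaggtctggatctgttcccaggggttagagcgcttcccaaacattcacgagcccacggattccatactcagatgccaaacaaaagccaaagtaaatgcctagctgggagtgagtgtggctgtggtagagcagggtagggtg
Bckdk promoter: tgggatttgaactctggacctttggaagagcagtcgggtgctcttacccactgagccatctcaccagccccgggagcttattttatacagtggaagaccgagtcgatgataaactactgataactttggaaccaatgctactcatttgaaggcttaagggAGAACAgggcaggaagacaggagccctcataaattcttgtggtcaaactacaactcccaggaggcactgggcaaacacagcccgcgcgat
Promoter windows were at hand for 7 of the 9 genes, 9 windows in all, and not for *Dbt* and *Gls2*. The half-site was found once in that of *Bckdk*, with its first base at position -90 from the start, and once in the first of the 2 windows of *Bckdhb*, at position -238. No window held 2 half-sites facing each other across 3 bases. Only 3 of 32851 promoter windows (0.00913%) hold that pattern, so its absence from these 9 says nothing about them. Of all 32851 promoter windows of this length 16.1% hold the half-site, beside 2 of these 9. A match in these letters is a description and not a bound site, and enhancers far from the start lie outside them.

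*Gls2*, which degrades glutamine, was a liver transcript. It stood at 285 CPM in vehicle-treated GRf/f, 213 CPM in CORT-treated GRf/f, 265 CPM in vehicle-treated GRmKO and 283 CPM in CORT-treated GRmKO liver. The CORT-treated GRf/f library alone was low, and the change with CORT was -0.42 (-0.48 to -0.37) in GRf/f and 0.09 (0.04 to 0.15) in GRmKO mice. In WAT it lay between 0 and 0.693 CPM. In gastrocnemius it was at 0, 0.0697, 0.400 and 1.75 CPM, the last from 35.7 counts, and hepatocyte markers were highest in that same library. Their share of liver *Gls2* was 0.700 CPM there, below the measured 1.75 CPM, although the rows of the 2 tissues are different transcripts.

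Branched-chain amino acid genes came next. In gastrocnemius 7 of the 9 genes were above 0 in all 4 libraries and so entered the calls, *Gls2* and *Bckdhb* being left out. With CORT in GRf/f muscle 1 of the 7, *Bcat2*, was called, where 3.45% of 13543 genes were. Scaled to library totals, the same gene was the only one past 1.5 times, where 22.6% of genes were. With either other set of scaling factors, TMM or median-of-ratios, *Glul* was past 1.5 times too. In GRmKO muscle none was called or past 1.5 times with CORT, against 2.0% and 18.9% of all genes. Between genotypes under vehicle *Bcat2* alone was called and past 1.5 times, against 3.18% and 24.0% of all genes. Under CORT *Glul* was called and *Glul* and *Bckdk* were past 1.5 times, against 3.98% and 27.7%. The median change of the 7 genes was -0.04, -0.15, -0.07 and -0.04 in these comparisons, beside -0.08, -0.10, 0.07 and 0.02 over all genes tested.

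*Bcat2*, the aminotransferase that opens the pathway, gave the largest change among the 7 genes in muscle. It stood at 4.59 CPM (3.74 to 5.63) in vehicle-treated GRf/f, 33.2 CPM (30.8 to 35.9) in CORT-treated GRf/f, 52.1 CPM (49.1 to 55.4) in vehicle-treated GRmKO and 41.3 CPM (38.6 to 44.2) in CORT-treated GRmKO muscle. The vehicle-treated GRf/f library stood apart from the other 3, and both calls rest on it. The log2 change with CORT was 2.73 (2.54 to 3.19) in GRf/f and -0.33 (-0.47 to -0.20) in GRmKO mice, and GRmKO minus GRf/f was 3.37 (3.20 to 3.83) under vehicle and 0.31 (0.16 to 0.46) under CORT. Both calls held under all 5 alternative settings of NOISeq. With 12.7% of the transcript set apart from its 5 sister coding transcripts, whether the gene as a whole was low in that library, or only this transcript of it, was not tested.

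*Bckdhb*, a subunit of the decarboxylase, stood at 17.4 CPM and 15.5 CPM in vehicle- and CORT-treated GRf/f muscle, from 345 and 301 counts, and at 0 in both GRmKO libraries. Set against the floor of 3 counts per library, the row was at least 117 times higher in GRf/f than in GRmKO muscle under vehicle and at least 105 times higher under CORT. The sequence of the row limits what this says. Bckdhb-201, the retained transcript, is identical over its 1472 bases to the 3′ part of Bckdhb-206, which differs only by 5 further bases at its 5′ end, shown in capitals (plus strand of chromosome 9, GRCm38, from 83925145 and 83925150 to 83925174, all within the first exon).
Bckdhb-206: GGGCTgcggtgcctgagaactggggatggc
Bckdhb-201: gcggtgcctgagaactggggatggc
No read inside these 1472 bases can tell the 2 transcripts apart, and Bckdhb-206 is not among the rows. The partner subunit *Bckdha*, with 62.9% of its transcript set apart, stood at 105, 93.2, 123 and 128 CPM in vehicle-treated GRf/f, CORT-treated GRf/f, vehicle-treated GRmKO and CORT-treated GRmKO muscle. The acyltransferase *Dbt*, with 83.7%, stood at 27.7, 26.9, 25.7 and 23.1 CPM. Neither subunit showed a fall of the kind seen in the *Bckdhb* row, and whether total *Bckdhb* RNA fell was not tested.

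The other genes of muscle moved less. *Bckdk*, the inhibitory kinase, stood at 107, 72.3, 107 and 112 CPM, so that only the CORT-treated GRf/f library was low. Its log2 change with CORT was -0.56 (-0.66 to -0.47) in GRf/f and 0.07 (-0.02 to 0.15) in GRmKO muscle, and GRmKO minus GRf/f under CORT was 0.63 (0.54 to 0.73), past 1.5 times but not called. *Bckdha* differed in the same direction under CORT, by 0.45 (0.37 to 0.54). *Ivd* stood at 124, 102, 116 and 98.9 CPM and *Hibch* at 32.1, 36.9, 30.6 and 34.4 CPM, each with CORT changes of one sign in both genotypes. Those of *Ivd* were -0.28 (-0.37 to -0.20) and -0.22 (-0.31 to -0.14). Scaling of the libraries matters at this size, since TMM factors moved the median of all genes by 0.15 for CORT in GRmKO muscle and turned the sign of *Dbt* there.

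**Figure D3:**
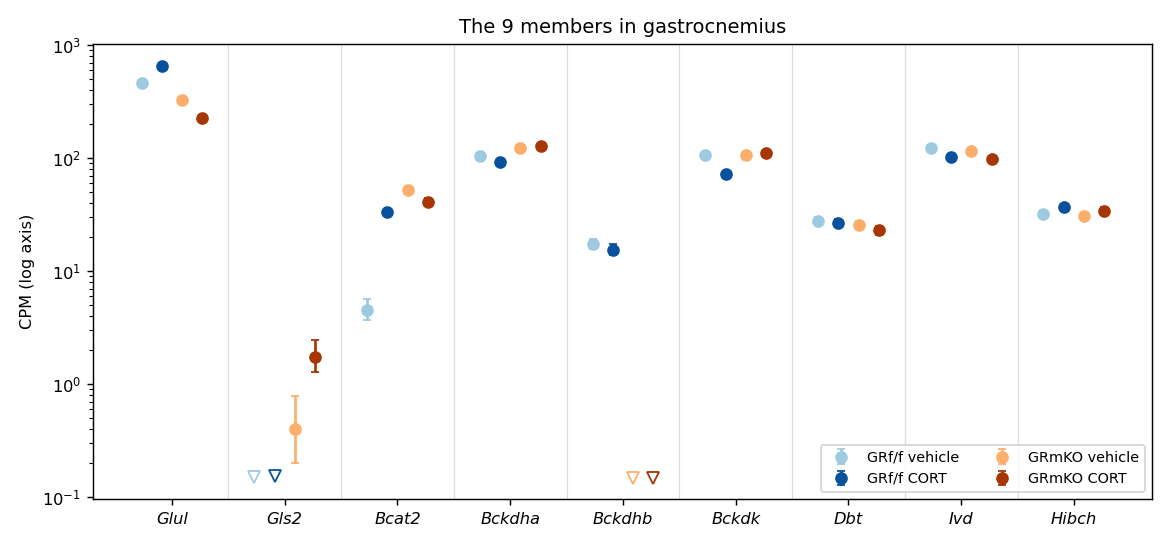
CPM on a log axis of the 9 genes in the 4 gastrocnemius libraries, with 95% counting intervals, and open triangles at the floor of 3 counts for libraries at or under it. *Bcat2* is low in the vehicle-treated GRf/f library alone, at 4.59 CPM beside 33.2 to 52.1 CPM, and the *Bckdhb* row is at 0 in both GRmKO libraries.

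To ask whether the pathway around them moved, 2 lists of other genes were read in the same libraries. Of 22 measured genes of branched-chain amino acid breakdown in gastrocnemius, 1 was called with CORT in GRf/f mice, none in GRmKO mice, 1 between genotypes under vehicle and none under CORT. That gene was *Slc25a44*, the mitochondrial carrier of branched-chain amino acids, at 23.5, 10.4, 10.5 and 20.9 CPM in vehicle-treated GRf/f, CORT-treated GRf/f, vehicle-treated GRmKO and CORT-treated GRmKO muscle. The 4 values of *Slc25a44* form 2 pairs that do not follow genotype or treatment, and its CORT change was -1.14 (-1.42 to -0.93) in GRf/f and 0.96 (0.75 to 1.24) in GRmKO mice. *Klf15*, a transcription factor induced by GR that raises *Bcat2* in muscle, stood at 40.6, 36.5, 39.2 and 31.2 CPM and did not share the pattern of *Bcat2*. *Ppm1k*, the phosphatase that reverses *Bckdk*, stood at 11.8, 10.4, 12.6 and 9.81 CPM, and *Bcat1*, the cytosolic aminotransferase, at 0.567 CPM or less.

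Of 16 measured genes of glutamine and glutamate metabolism in gastrocnemius, 1 was called higher with CORT in GRf/f mice and none in GRmKO mice. It was *Oat*, ornithine aminotransferase, at 125, 289, 97.1 and 96.5 CPM, a log2 change of 1.21 (1.14 to 1.28). Under CORT *Oat* was lower in GRmKO than in GRf/f muscle by -1.58 (-1.66 to -1.51), a value next to that of *Glul*. *Prodh*, proline dehydrogenase, at 4.84, 11.5, 5.15 and 3.80 CPM, was called in that comparison too with -1.48 (-2.00 to -1.22), and *Ppat*, which uses glutamine in purine synthesis, was called higher in GRmKO muscle with 1.06 (0.89 to 1.28). The list as a whole had a median change under CORT between genotypes of -0.10, beside 0.02 over all genes.

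The genes most like *Glul* over the 12 libraries were sought among 4270 with at least 10 CPM on average in every tissue and the same transcript in all 3. Likeness was the root mean square difference of log2 CPM after centring on each tissue. The closest were *Ube4a* at 0.122, *Smyd2* at 0.132, *Huwe1* at 0.134, *Plin3* at 0.147 and *Lnpep* at 0.150. *Smyd2* stood at 189.5, 260.5, 114 and 105 CPM in vehicle-treated GRf/f, CORT-treated GRf/f, vehicle-treated GRmKO and CORT-treated GRmKO muscle, and *Plin3* at 39.4, 57.97, 27.7 and 16.6 CPM. As the search was over these same libraries, the likeness is a description.

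In WAT, 8 of the 9 genes were above 0 in all 4 libraries, *Gls2* being the exception. With CORT 7 of the 8 were lower in GRf/f mice and 8 of the 8 in GRmKO mice, where 55.0% and 61.6% of all genes tested were lower. The medians were -0.43 and -0.32, beside -0.07 and -0.12 over all genes tested. TMM factors changed these counts to 6 and 7 of 8 with medians of -0.36 and -0.19, and median-of-ratios factors to 5 and 7 with -0.35 and -0.19. None of the 8 was called in GRf/f mice, where 7.29% of 14218 genes were, nor in GRmKO mice, where 4.32% were. *Bckdha* and *Bckdk* were past 1.5 times in GRf/f mice, where 32.6% of genes were, and none in GRmKO mice, where 25.1% were. So in WAT most of the genes were lower with CORT by modest amounts, and the share of them past either label was not above that of all genes.

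*Bckdha* stood at 226, 133, 216 and 156 CPM in vehicle-treated GRf/f, CORT-treated GRf/f, vehicle-treated GRmKO and CORT-treated GRmKO WAT. Both CORT libraries lay below both vehicle libraries, with log2 changes of -0.76 (-0.83 to -0.69) and -0.47 (-0.53 to -0.40). *Ivd* did likewise at 308, 226, 331 and 236 CPM, with -0.44 (-0.50 to -0.39) and -0.48 (-0.54 to -0.43), and so did *Bcat2* at 239.8, 179, 251 and 193 CPM, with -0.42 (-0.48 to -0.36) and -0.38 (-0.44 to -0.32). *Bckdhb*, here as Bckdhb-205, followed at 51.2, 34.7, 46.6 and 41.3 CPM. *Bckdk* stood at 58.2, 35.0, 50.4 and 49.6 CPM and was low in the CORT-treated GRf/f library only, as it was in muscle. *Dbt* at 100.2, 94.9, 113 and 89.3 CPM and *Hibch* at 159.8, 153, 196 and 161 CPM changed by no more than -0.08 with CORT in GRf/f mice, and by -0.34 and -0.29 in GRmKO mice. The scaling turned the sign of the GRf/f values of *Hibch* and *Dbt* and of the GRmKO value of *Bckdk*.

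The cell markers of WAT moved in the same comparisons. The 8 adipocyte markers summed to 29990, 25520, 32330 and 25250 CPM, changes with CORT of -0.23 and -0.36 in GRf/f and GRmKO mice. The 6 endothelial markers summed to 673, 263, 609 and 374 CPM, the 8 macrophage and leukocyte markers to 223, 529.3, 305 and 499.6 CPM and the 6 fibroblast markers to 2551, 3023, 2496 and 3087 CPM. *Itgam* was at 0 in vehicle-treated and *Ptprc* in CORT-treated GRf/f WAT, and no endothelial, fibroblast or adipocyte marker was at 0. The 12 hepatocyte markers summed to 5691, 4967, 5897 and 4998 CPM, with *Apob* at 0 in both GRf/f libraries. Over the 11 of them tested, the median log2 change with CORT was 0.06 in GRf/f and 0.64 in GRmKO WAT. Between genotypes that median was 0.08 under vehicle and 0.78 under CORT, and none of the 11 was called in any comparison. The 8 myofibre markers summed to 45.1, 116, 200.7 and 104 CPM, with some at 0 in each library. Of the 3 of them tested, *Acta1* was called higher with CORT in GRf/f and lower with CORT in GRmKO WAT. Under vehicle it was called higher in GRmKO than in GRf/f WAT. The part of all these markers in the lower values of the branched-chain genes was not tested.

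Among 22 other genes of branched-chain amino acid breakdown, the median change in WAT with CORT was -0.29 in both genotypes. In GRf/f mice 2 of them were past 1.5 times higher and 3 lower, and 1 was called, *Bcat1*, with 3.98 CPM under vehicle and 14.4 CPM under CORT (log2 change 1.73, 1.495 to 2.24). In GRmKO mice *Bcat1* stood at 4.07 and 9.93 CPM, which was not called (1.19, 0.92 to 1.69). *Klf15* was called in GRmKO mice, in which it fell from 96.7 to 38.9 CPM, by -1.30 (-1.43 to -1.19), beside 73.6 and 56.9 CPM in GRf/f mice. *Slc25a44* stood at 31.5, 50.8, 29.2 and 49.1 CPM and so was higher in both CORT libraries of WAT, as was *Bcat1*. Of the 22 genes of this list 7 were higher and 15 lower with CORT in each genotype. Of the glutamine list *Gfpt2*, which uses glutamine to make hexosamines, was called in both genotypes, at 35.3, 154, 48.1 and 127 CPM. With CORT 13 of the 16 genes of that list were higher in GRf/f and 9 in GRmKO WAT, with medians of 0.33 and 0.06.

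Between genotypes WAT showed little. None of the 8 genes was called under vehicle or under CORT, where 0.76% and 0.675% of all genes were, and none was past 1.5 times, where 9.67% and 10.6% were. The widest difference was that of *Bckdk* under CORT, 0.50 (0.36 to 0.65). Under vehicle it was that of *Hibch*, 0.30 (0.23 to 0.36).

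In liver all 9 genes entered the calls and none was called in any comparison. The share called of 12485 genes was 4.86% for CORT in GRf/f mice, 2.22% for CORT in GRmKO mice, 0.553% between genotypes under vehicle and 1.42% under CORT. *Bckdk* and *Ivd* were past 1.5 times with CORT in GRf/f mice, against 27.2% of all genes, and *Ivd* alone in GRmKO mice, against 17.7%. Between genotypes none was past 1.5 times under vehicle, against 9.92%, and *Bckdk* alone under CORT, against 16.5%. The GRf/f livers are numbered apart from all other libraries of the series, so genotype in liver coincides with that numbering. Any part of it in these values was not tested. With CORT 6 of the 9 were lower in GRf/f and 5 in GRmKO mice, where 49.2% and 44.7% of all genes tested were lower. The medians were -0.29 and -0.04, beside 0.00 and 0.05 over all genes tested. Between genotypes under CORT 7 of the 9 were higher and 2 lower in GRmKO mice, where 42.1% of all genes tested were lower. Either set of scaling factors reduced the count of 7 to 5.

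*Ivd* was lower with CORT in the livers of both genotypes, at 175 and 98.4 CPM in GRf/f and 177 and 109.5 CPM in GRmKO mice under vehicle and CORT. Its changes were -0.82 (-0.91 to -0.75) and -0.69 (-0.77 to -0.62), and GRmKO minus GRf/f was 0.02 under vehicle and 0.15 under CORT. *Dbt* was lower in both CORT libraries too, at 79.2, 64.7, 92.9 and 67.5 CPM in vehicle-treated GRf/f, CORT-treated GRf/f, vehicle-treated GRmKO and CORT-treated GRmKO liver. *Bckdha* at 211, 169.7, 201 and 195 CPM was lowest in the CORT-treated GRf/f library. *Bckdhb* was at 41.3, 44.5, 48.5 and 35.4 CPM, with changes of 0.11 and -0.45 in the 2 genotypes, and *Hibch* between 59.6 and 64.3 CPM. *Bcat2*, here as Bcat2-203, stood at 21.9, 21.03, 20.7 and 26.3 CPM, and *Bcat1* was at 0 in all 4 livers, which allows up to 0.143 to 0.147 CPM. *Ppm1k*, the phosphatase that activates the complex, was the one called gene among 21 tested of the branched-chain list, from 48.5 to 18.1 CPM in GRf/f mice, by -1.39 (-1.60 to -1.25), and stood at 35.8 and 22.96 CPM in GRmKO mice. Of 15 genes tested of the glutamine list, 1 was called lower with CORT in GRf/f mice, *Ppat*, at 30.8 and 11.7 CPM, and 1 in GRmKO mice, *Oat*, at 757 and 264 CPM, with no gene called higher in either. *Oat*, itself a perivenous gene, stood at 713 and 385 CPM in GRf/f liver, so it was lower in both CORT-treated livers, in which *Glul* was higher. The perivenous markers as a list were split, with 4 of 10 higher with CORT in GRf/f and 3 of 10 in GRmKO liver.

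*Bckdk* in liver stood at 7.45, 3.07, 5.65 and 5.30 CPM, from 156, 62.9, 117 and 110 counts. The change with CORT was -1.15 (-1.72 to -0.84) in GRf/f and -0.09 (-0.48 to 0.29) in GRmKO mice. The CORT-treated GRf/f library was thus the lowest for this row in all 3 tissues, and the responses of the genotypes differed by 1.18 in liver (0.62 to 1.75), by 0.71 in WAT (0.52 to 0.90) and by 0.63 in gastrocnemius (0.50 to 0.76). These intervals hold counting error only, none of the changes was called, and 0% of the row is set apart from the sister transcripts of the gene.

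**Figure D4:**
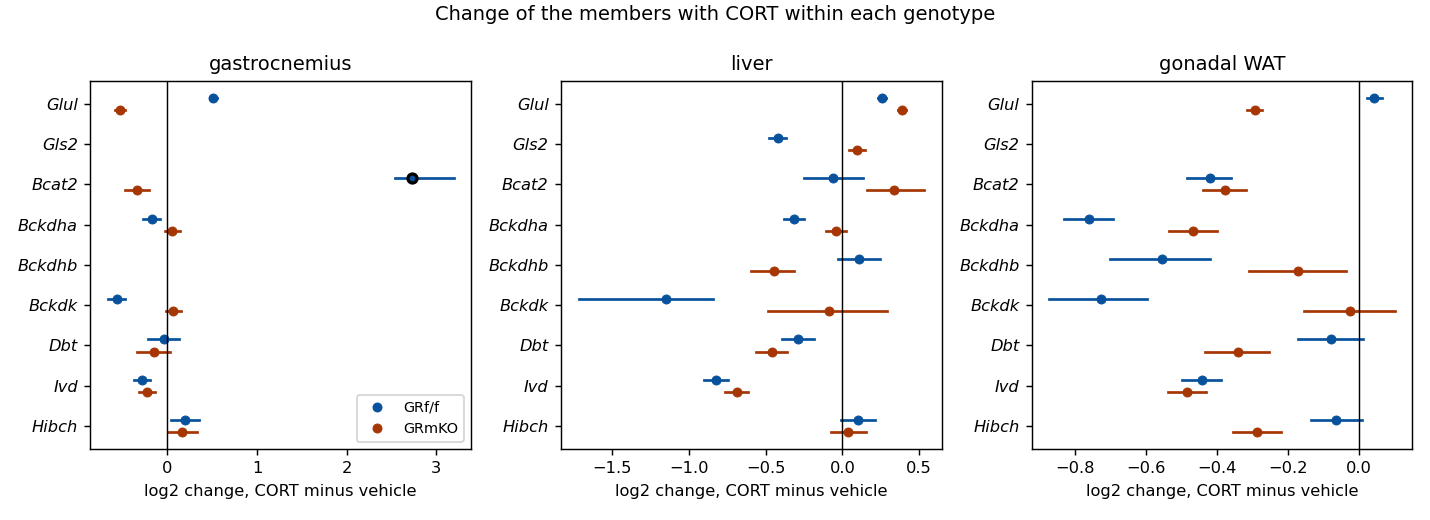
Log2 change of the 9 genes with CORT in GRf/f (blue) and GRmKO (brown) mice in each tissue, with 0.5 CPM added, and lines for the 95% counting interval of the plain ratio; genes at 0 in a library of the tissue are not drawn. The axes differ between tissues, and a black ring marks the 1 called change, *Bcat2* at 2.73 in GRf/f muscle. In WAT 15 of the 16 points lie below 0, where 55.0% (GRf/f) and 61.6% (GRmKO) of all genes tested were lower.

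Levels were compared between genes per kilobase of the retained transcript. The kinase was nearly as abundant as its target in muscle and far less so in liver: the ratio of *Bckdk* to *Bckdha* per length was 0.0192 to 0.0374 in the 4 livers, 0.247 to 0.336 in WAT and 0.822 to 1.08 in gastrocnemius. Both rows hold the same transcript in all 3 tissues, though Bckdk-201, with 1729 windows of its own, is not among the rows. The same ratio for *Dbt* ran from 0.104 to 0.166 in muscle, from 0.199 to 0.266 in the livers and from 0.255 to 0.410 in the WAT libraries. *Bcat2* was second only to *Glul* per length in all 4 WAT libraries, while in liver it ranked above *Bckdk* alone. *Hibch* ranged from 153 to 196 CPM in WAT, from 59.6 to 64.3 CPM in liver and from 30.6 to 36.9 CPM in gastrocnemius, 3 ranges that did not overlap.

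**Figure D5:**
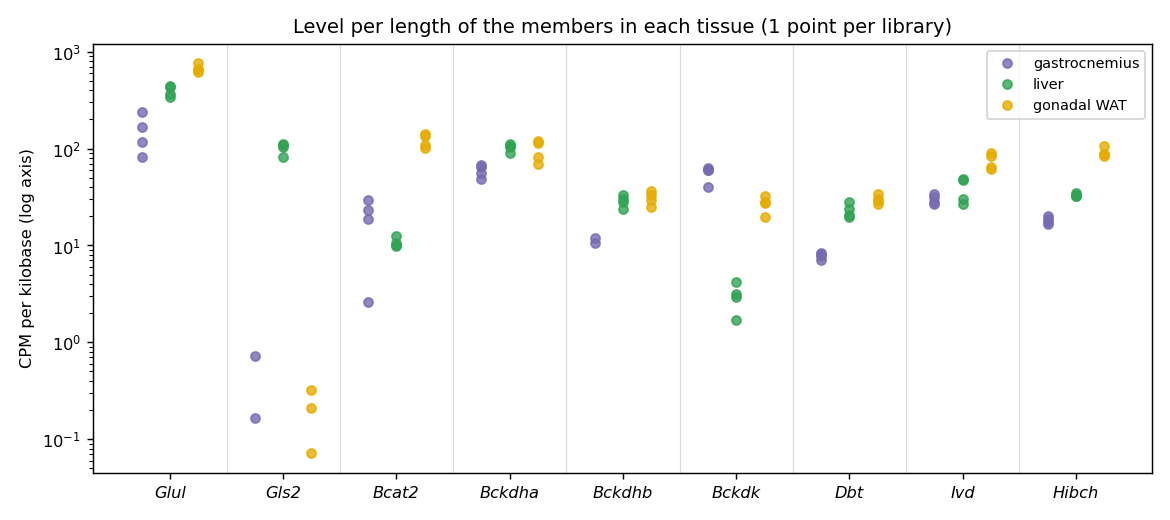
Level per length, in CPM per kilobase on a log axis, of the 9 genes in each tissue, with 1 point per library above the floor of 3 counts. *Gls2* is a liver transcript, *Bckdk* is lowest in liver, and *Bcat2* and *Hibch* are highest in WAT.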

How the data were processed

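Per the labels and the methods of the study, RNA of 3 mice was pooled per group, 100-base paired reads were made, and the authors quantified them with Salmon 1.2.1 on GENCODE M20 coding transcripts (mm10) and imported them with tximport in R 3.5.0, giving expected counts scaled by transcript length (lengthScaledTPM). In the deposited expected counts, a gene name held by several entries was kept once, with the entry of largest total. The methods of the study name the function summarizeToGene, while the rows bear transcript identifiers that for *Bcat2*, *Bckdhb* and *Gls2* differ between tissues. Whether transcripts were summed first is therefore not settled by the sources used here.

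The 12 libraries were grouped by tissue, genotype and treatment, and rows were taken by symbol. Genes with no zero among the 4 libraries of their tissue went into the NOISeq procedure for unreplicated data, rewritten in Python 3.11.15 (simulated depth 20% of the library, 5 simulated samples, variability 0.02, threshold 0.9, no length correction) and tested on simulated data. Intervals are Wilson (CPM) and Clopper-Pearson (ratios), for counting error only, and reads without molecular identifiers are not independent molecules. Alternatives used TMM (edgeR 4.0.16) and median-of-ratios (DESeq2 1.42.0) factors, other pseudocounts, filters, depths and thresholds. Named beside the 9 genes were Nr3c1, Fkbp5, Klf15, Bcat1, Ppm1k and Slc25a44, the genes of the 2 pathway lists that were called in a comparison (at most the 3 largest changes), markers that moved with a result, and the 5 genes closest to Glul; 1 further gene of the naming rule is not reported here. The 9 genes, the lists and the tests were chosen with earlier results of these data known. Own windows and first exons were read from GENCODE M21 (GRCm38) and promoters from RefSeq (GRCm38.p6).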

Additional observations from a re-analysis of the deposited data

Results flagged for a closer look

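For 4 results the CORT response had opposite signs in the 2 genotypes with counting intervals that both excluded 0, each genotype being 1 pool per treatment, and in none of them was the difference tested. All values are log2 responses without an added constant, and the difference is GRmKO minus GRf/f. *Glul* in gastrocnemius gave -1.04, from responses of 0.51 in GRf/f and -0.53 in GRmKO mice. *Bcat2* in gastrocnemius gave -3.19, from 2.86 and -0.34, and rests on the vehicle-treated GRf/f library at 4.59 CPM. *Gls2* in liver gave 0.52, from -0.42 and 0.09. *Glul* in WAT gave -0.34, from 0.04 and -0.29. Signs were also opposite, with at least 1 interval that held 0, for *Bckdk* (0.63) and *Bckdha* (0.23) in gastrocnemius and for *Bcat2* (0.41) and *Bckdhb* (-0.56) in liver.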

How the results depend on the processing

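The 3 calls, *Bcat2* for CORT in GRf/f and for genotype under vehicle and *Glul* for genotype under CORT, held under all 5 other settings of NOISeq, and no called change turned its sign. With the full library as simulated depth, 3, 1, 2 and 2 of the 9 genes were called in gastrocnemius (CORT in GRf/f, CORT in GRmKO, genotypes under vehicle, genotypes under CORT). Of all genes 14.0%, 10.4%, 17.5% and 17.8% were called there. In liver the counts were 2, 1, 0 and 0, where 15.1%, 9.43%, 3.83% and 6.82% of all genes were called. In WAT they were 4, 2, 0 and 1, where 25.9%, 18.6%, 6.0% and 5.89% were. With a threshold of 0.8, 2 were called in gastrocnemius between genotypes under CORT, 1 and 1 in liver with CORT in GRf/f and GRmKO, and 3 and 1 in WAT. With a mean of at least 1 CPM as the filter, 2 genes were called in gastrocnemius between genotypes under either treatment. Of all genes 7.67% (vehicle) and 7.87% (CORT) were called there. Each time 1 of the 2 was *Bckdhb*, which passed this filter only through its GRf/f libraries, being at 0 in both GRmKO libraries. Its calls follow from that filter and add no support. With CORT in GRf/f 1 was called in liver (*Ivd*), where 8.78% of all genes were, and 2 in WAT, where 15.1% were. A ratio of 1.5 in place of NOISeq gave 2 in gastrocnemius between genotypes under CORT, 2, 1 and 1 in liver (CORT in GRf/f, CORT in GRmKO, genotypes under CORT) and 2 in WAT with CORT in GRf/f. Under the full depth, the lower threshold and the mean filter the counts over all genes rose as well, by more than 1.5 times in each comparison. TMM and median-of-ratios factors each turned the sign of 8 of 108 changes of single genes, none larger than -0.15 before, and moved the median of all genes for CORT in GRmKO mice from -0.08 to 0.07 (TMM) in gastrocnemius and from -0.12 to 0.00 in WAT. No paired analysis was possible because each group holds 1 library, and no library could be left out. The spread between pools is unknown.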
